A study of Mus musculus with 11 samples.

Results

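HSC of both mutant genotypes of an RNA-Seq experiment, NA10hd and NV, were set together against control HSC to find the changes they had in common, across all genes. The comparison took in all 11 libraries of the series, 7 of them mutant (4 NA10hd and 3 NV) and 4 control, and each genotype was given the same weight whatever its number of libraries. NA10hd mice carried a fusion of NUP98 with the homeodomain of HOXA10, tagged with 3xFlag and followed by IRES-Tdtomato, at the ROSA26 locus behind a loxp-stop-loxp cassette that Vav-Cre removed. NV mice carried 1 NrasG12D allele with its own loxp-stop-loxp cassette together with Vav-Cre, and control mice were labelled wild type and are called littermates in the methods, with no further genotype given there for these libraries. The mice were of the C57BL/6 background and 8 weeks old, and each library was made from 1000 sorted bone marrow cells that were Lin-, CD48-, c-Kit+, Sca1+, CD135- and CD150+. Vav-Cre acts in the whole blood lineage, and the sources describe no control with Vav-Cre alone. An effect of Cre itself therefore cannot be told apart from one of the mutant alleles in whatever both genotypes shared.

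HSC are rare, mostly resting cells that renew themselves and feed all blood lineages. NUP98-HOX fusions keep a stem cell HOX program active, whereas Nras G12D is locked in its GTP-bound state and feeds the MAPK and PI3K pathways, so the alleles act at different levels of the cell. Interferon-stimulated genes and MHC genes, which come up repeatedly here, are antiviral and antigen presentation genes that HSC express at a basal level and raise on exposure to interferon.

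The libraries held 5464815 to 14283008 counts and 13859 to 15900 detected genes. NA10hd libraries varied most among themselves, with a common dispersion (the squared relative spread between replicates) of 0.352 against 0.0923 in control and 0.0929 in NV, and 1 fit served all 3 groups. That fit shares its spread over the groups, so p-values of NA10hd, on which calls in both genotypes rest, may be too small. In CPM, which are counts scaled to the size of the library, Kit was at 244 to 467, Ly6a (Sca1) at 255 to 592 and Slamf1 (CD150) at 63.2 to 168, and Cd48 was at 0 to 5.89 CPM. Flt3 (CD135), which the gate left out, was at 2.07 to 18.7 CPM. Judged by Xist and Y-linked counts, control replicates 1 and 4 and NA10hd replicates 1 to 3 held male cells only, NA10hd replicate 4 held female cells only and the other libraries held both. The study calls such samples biological replicates, but the sources used here do not tie each library to a mouse, so p-values measure the spread between these samples. Of the targeted genes, read on the whole endogenous gene, the mean of both genotypes differed from control by a log2 fold change of 0.31 for Nras, -0.06 for Nup98 and 0.06 for Hoxa10. Their adjusted p-values were 0.670, 0.990 and 0.985 (edgeR). For Hoxa10 the mean joined opposite signs, 0.53 in NA10hd and -0.41 in NV, while Nras was at 0.19 and 0.42 and Nup98 at 0.09 and -0.22. Counts of Nras do not separate the alleles, and it was not tested where reads of the fusion were counted.

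Across the genome, few genes changed by this measure, and fewer changed in both genotypes. Averaged over NA10hd and NV, 12 of 14013 tested genes (0.0856%) were DEGs, that is, had an adjusted p under 0.05 and more than a 1.5-fold change in edgeR's quasi-likelihood test. Higher than control were 5 (0.0357%) and lower were 7 (0.05%). A DEG was called common when NA10hd and NV each had the same sign as the average and an unadjusted p under 0.05. There were 8 common DEGs (0.0571%), of which 5 were higher (0.0357%) and 3 lower (0.0214%). The higher ones were Sva, Plac8, Gem, Irf7 and Itgb2, and the lower ones Slc17a8, Clec1a and Cdcp1. NA10hd and NV were set against the same 4 control libraries, so the genotypes are not independent of each other in this count. The other 4 DEGs of the average (Ncam2, Gda, Ifitm1 and Ppp1r15a) did not meet the test in NA10hd. At an unadjusted p under 0.05, 1015 genes (7.24%) passed in the average. The stricter test, which adjusts the larger p-value of both genotypes, passed 2 genes (0.0143%), Sva and Plac8. DESeq2 called 79 DEGs of the average and 48 common DEGs, which included all 8 named above. Some other settings lost members of the 8, as given at the end.

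**Figure D1:**
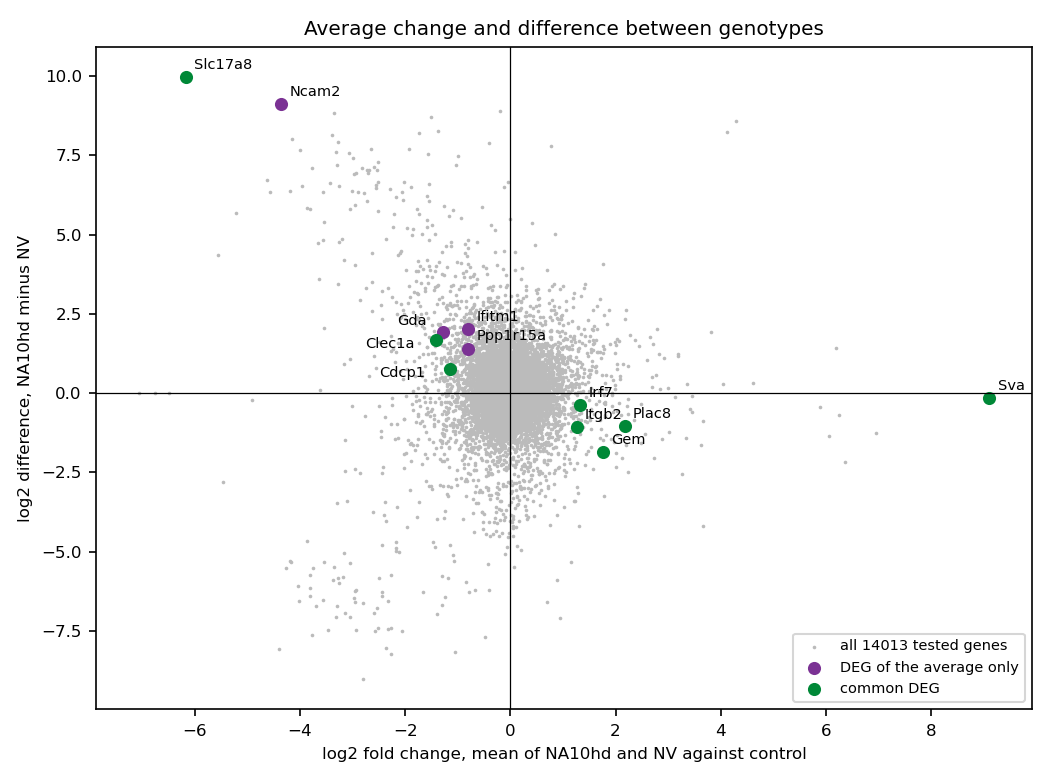
Each point is 1 of 14013 tested genes. The x axis gives the log2 fold change of the mean of NA10hd and NV against control, and the y axis the log2 difference of NA10hd minus NV. Green points are the 8 common DEGs and purple points the 4 DEGs of the average alone. Sva lies far right at 9.11 and near 0 on the y axis, whereas Slc17a8 and Ncam2 lie at the upper left, with differences of 9.97 and 9.11.

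Plac8 had the largest averaged fold change of the common DEGs that had counts in every group. It encodes a small cysteine-rich protein of myeloid and progenitor cells. Control libraries had 34.4, 24.4, 27.5 and 33.0 CPM, NA10hd libraries 107, 107, 114 and 46.5 CPM, and NV libraries 195, 178 and 203 CPM. All 7 mutant libraries lay above all 4 control libraries, with NA10hd replicate 4 the lowest of them. The averaged log2 fold change was 2.17 (standard error 0.23, adjusted p = 0.000751, edgeR), made up of 1.66 in NA10hd and 2.69 in NV. The change in NV exceeded that in NA10hd by 1.03 on the log2 scale (95% interval of NA10hd minus NV -1.56 to -0.51).

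Gem, a small GTPase of the RGK family that restrains calcium channels, was also higher in both genotypes. Its CPM were 47.4, 34.9, 41.6 and 29.8 in control, 64.5, 52.4, 91.0 and 66.3 in NA10hd, and 297, 216 and 229 in NV. The NA10hd libraries lay just above the control libraries and the NV libraries well above both. The averaged log2 fold change was 1.76 (standard error 0.19, adjusted p = 0.000751, edgeR), with 0.84 in NA10hd and 2.69 in NV. Most of the average thus came from NV, and the difference between genotypes, -1.85, passed the same test with an adjusted p of 0.000120.

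Sva, which encodes a secreted glycoprotein named for seminal vesicle fluid, was a case of presence and absence. It had 0 counts in all 4 control libraries, which allows up to 0.0836 CPM at 3 counts over the group. NA10hd libraries had 67, 72, 55 and 47 counts and NV libraries 102, 105 and 63, or 8.24, 5.73, 4.76 and 6.68 CPM and 8.12, 7.11 and 6.09 CPM. Every mutant library had counts, at a similar and low level, and no control library had any. Against the control limit, Sva was at least 73.0-fold higher in NA10hd and at least 87.5-fold higher in NV. The adjusted p of the average was 0.00154 (edgeR), and NA10hd and NV differed by -0.16 on the log2 scale, with a 95% interval of -1.42 to 1.09. Sva (ENSMUSG00000023289) lies on chromosome 6, at 41988393 to 41992850 of NCBIM37. Within 500000 bases of it, the annotation has 41 genes, counting Sva, of which 26 had no counts in any library and 6 were tested. Sva alone of these 6 had an unadjusted p under 0.05 in the average. Reads from related genes of the same cluster could have been assigned to it, which was not tested.

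Itgb2 and Irf7 completed the higher common DEGs. Itgb2, the beta chain (CD18) of leukocyte integrins, had 18.1, 14.1, 20.5 and 23.3 CPM in control, 26.2, 32.8, 40.7 and 25.9 CPM in NA10hd and 55.7, 64.2 and 78.3 CPM in NV. The groups did not overlap, although the lowest NA10hd libraries came close to the highest control library. Its averaged log2 fold change was 1.26 (standard error 0.22, adjusted p = 0.0418, edgeR), with 0.73 in NA10hd and 1.80 in NV. Of 27 tested integrin and adhesion genes, Itgb2 alone was higher and Cd63 alone lower at an unadjusted p under 0.05. Each is 3.7% of the list, about the share of all genes (3.55% higher and 3.7% lower).

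Irf7, a transcription factor that amplifies type I interferon production, had 44.5, 33.6, 22.9 and 31.2 CPM in control. NA10hd libraries had 77.6, 74.7, 96.2 and 40.9 CPM and NV libraries 98.7, 97.4 and 85.1 CPM. All mutant libraries but NA10hd replicate 4 lay above control, and that library fell within the control range. The averaged log2 fold change was 1.32 (standard error 0.23, adjusted p = 0.0471, edgeR), with 1.14 in NA10hd and 1.51 in NV. The genotypes differed by -0.37 (95% interval -0.93 to 0.19), an interval that includes 0.

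Of the lower genes, Cdcp1 was the only common DEG whose groups did not overlap. It encodes a transmembrane protein phosphorylated by Src family kinases, with 45.1, 49.9, 61.8 and 60.2 CPM in control. It had 32.7, 24.1, 31.1 and 39.9 CPM in NA10hd and 16.5, 21.1 and 19.1 CPM in NV. The order control, NA10hd, NV held for every library. The averaged log2 fold change was -1.14 (standard error 0.19, adjusted p = 0.0270, edgeR), with -0.76 in NA10hd and -1.52 in NV.

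Clec1a, a C-type lectin receptor, had 89.6, 52.9, 64.1 and 66.9 CPM in control, 56.5, 40.9, 29.1 and 58.5 CPM in NA10hd and 18.8, 12.1 and 12.1 CPM in NV. NV libraries were far below the rest, whereas NA10hd and control libraries overlapped. The averaged log2 fold change was -1.41 (standard error 0.22, adjusted p = 0.0270, edgeR), with -0.57 in NA10hd and -2.25 in NV.

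Slc17a8, a vesicular glutamate transporter, varied widely among the libraries that expressed it. Control libraries had 13.4, 36.6, 38.9 and 21.5 CPM, NA10hd libraries 5.78, 9.24, 9.17 and 24.9 CPM, and all NV libraries 0. NA10hd replicate 4 lay within the control range, and the other NA10hd libraries below it. Expression in NV was at least 338-fold lower than in control, taking 3 counts over the NV group as the limit. The fitted log2 fold change was -1.18 in NA10hd. The average (adjusted p = 0.000875, edgeR) is therefore mainly that of NV, and its fitted size depends on how counts of 0 are handled.

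**Figure D2:**
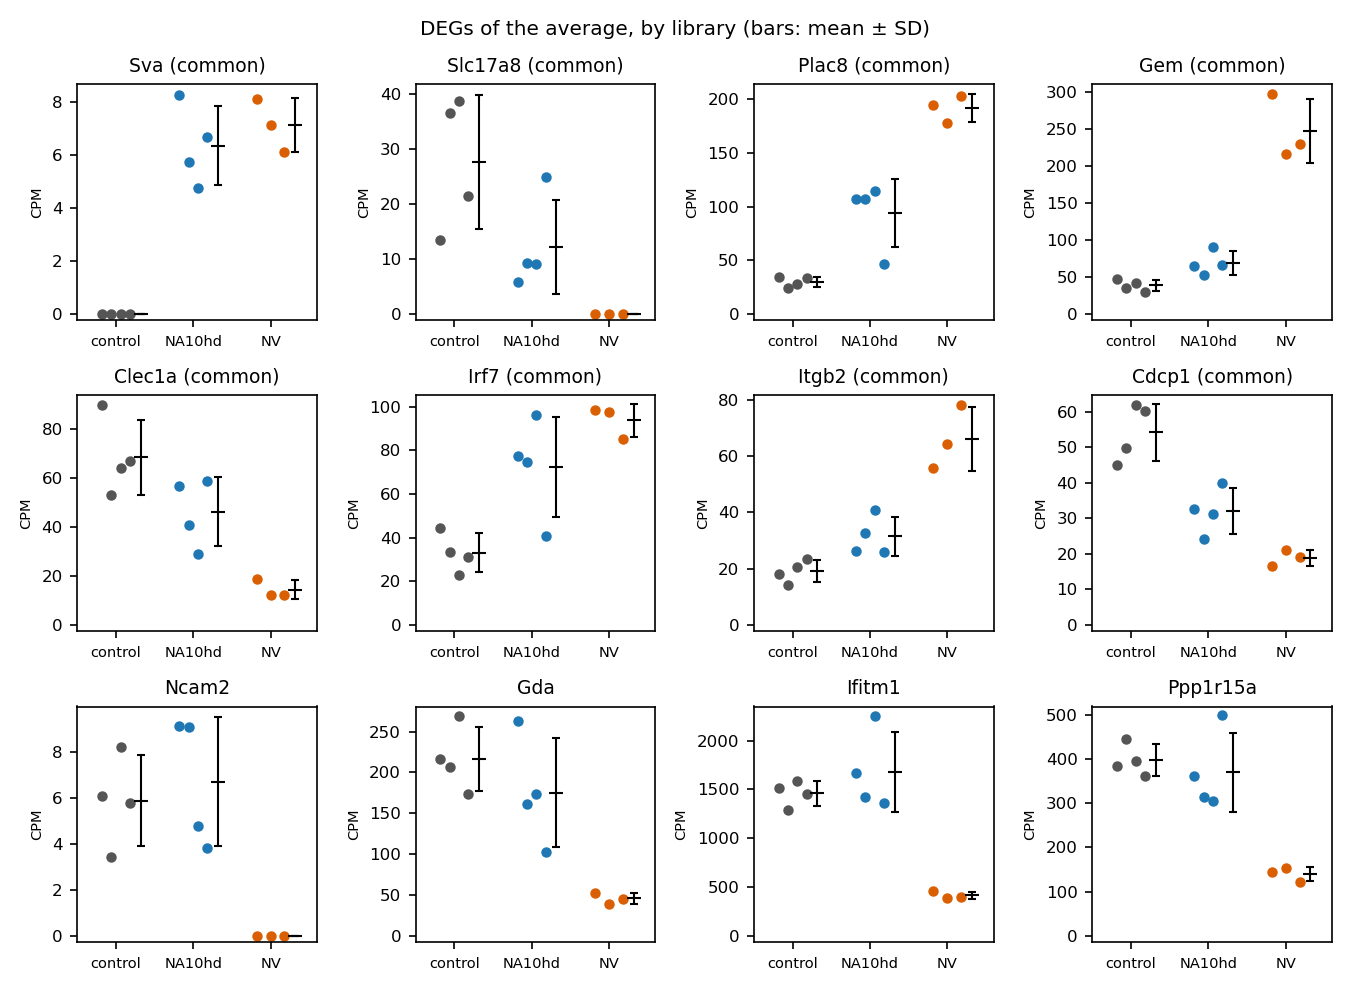
CPM (y axis, linear, from 0) of the 12 DEGs of the average in every control (grey), NA10hd (blue) and NV (orange) library, with the mean ± SD of each group in black. In all 8 common DEGs the NV libraries lie on average farther from control than the NA10hd libraries. For Ncam2, Gda, Ifitm1 and Ppp1r15a the NA10hd libraries overlap the control libraries.

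In all 8 common DEGs the fitted change was larger in NV than in NA10hd. Tested directly, the difference between genotypes passed as a DEG in 5 of the 8 (Slc17a8, Plac8, Gem, Clec1a and Itgb2). Genome-wide, NA10hd and NV differed in 1152 of 14013 genes (8.22%), against 12 for the average, and 3283 (23.4%) had an unadjusted p under 0.05. In the same fit, NA10hd against control gave 39 DEGs (0.278%) and NV against control 155 (1.11%), and 2013 (14.4%) and 1578 (11.3%) had an unadjusted p under 0.05. The mutants thus differed from each other in many more genes than their mean differed from control.

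The other 4 DEGs of the average were changes of NV. Ncam2, a neural adhesion molecule, had 6.08, 3.41, 8.22 and 5.79 CPM in control, 9.10, 9.08, 4.76 and 3.84 CPM in NA10hd and 0 in all NV libraries. Gda, which deaminates guanine, had 216, 207, 269 and 174 CPM in control, 263, 161, 174 and 102 CPM in NA10hd and 52.6, 39.2 and 45.3 CPM in NV. In both genes NV was far below the other groups, which overlapped. Ifitm1, an interferon-induced membrane protein, had 1513, 1285, 1589 and 1456 CPM in control, 1664, 1419, 2255 and 1360 CPM in NA10hd and 455, 389 and 402 CPM in NV. Ppp1r15a (GADD34), which directs protein phosphatase 1 to eIF2alpha under stress, had 384, 446, 395 and 361 CPM in control, 360, 314, 305 and 499 CPM in NA10hd and 145, 153 and 121 CPM in NV. Both genes again set NV apart from overlapping control and NA10hd libraries. In Ncam2 and Ifitm1 the fitted NA10hd change had the opposite sign to the average, at log2 fold changes of 0.19 and 0.20.

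Genes below the adjusted threshold were read at an unadjusted p. At an unadjusted p under 0.05 in each genotype, 145 genes (1.03%) had 1 sign in both, 97 higher (0.692%) and 48 lower (0.343%), and 241 passed with opposite signs. Both comparisons used the same 4 control libraries, which by itself favours 1 sign, so the 145 are listed as a description. With a library left out, a check that was added after seeing the data, the higher genes numbered 57 (without NV replicate 2) to 139 (without NA10hd replicate 1), and the lower genes 30 (without control replicate 2) to 95 (without NA10hd replicate 1). Over all genes, mutant libraries lay wholly above control for 71 (0.507%) and wholly below for 72 (0.514%), and 37 and 27 of these were among the 145. The difference between genotypes had an unadjusted p under 0.05 for 17 of the 145. For 52 of the 145 the 95% interval of that difference lay within 1.5-fold either way, so that a larger difference was outside the interval. In the remainder the interval reached past 1.5-fold on at least 1 side, and a p above the threshold there does not show that the genotypes acted alike.

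The genes described next were chosen after their values were seen, as the 24 with the smallest larger p-value at a mean of at least 5 CPM. Of the 24, 18 were higher and 6 lower in mutant HSC, and no adjusted p of the average was under 0.05. Flt3l, the ligand of the Flt3 receptor, had 13.9, 9.10, 10.1 and 10.8 CPM in control, 24, 20.4, 19 and 22.9 CPM in NA10hd and 24, 23.3 and 17.7 CPM in NV. Mutant libraries had about the same level in either genotype, without overlap with control. The log2 fold change was 0.98 in NA10hd and 0.99 in NV (adjusted p of the average 0.288, edgeR).

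Pip5k1a, a kinase that makes phosphatidylinositol bisphosphate, had 27.4, 28, 19 and 28.8 CPM in control. Its level was 69.6, 48.5, 51.5 and 59.2 CPM in NA10hd and 50.9, 46.7 and 39.4 CPM in NV. All mutant libraries lay above control, and NA10hd mostly above NV. The averaged log2 fold change was 0.99 (standard error 0.19, adjusted p = 0.0821, edgeR). Of 32 tested phosphoinositide kinases and phosphatases, Pip5k1a alone was higher in both genotypes at an unadjusted p under 0.05 and Pi4kb alone lower, or 3.12% of the list each, beside 0.692% and 0.343% of all genes.

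Among regulators of the cell cycle and of chromatin, Hinfp, which drives histone H4 transcription, had 3.94, 5.78, 3.35 and 6.73 CPM in control, 11.8, 9.48, 13.2 and 12.9 CPM in NA10hd and 27.3, 17.8 and 11.3 CPM in NV. Mutant libraries lay above control without overlap, and the averaged log2 fold change was 1.59 (adjusted p = 0.173, edgeR). Fzr1 (Cdh1), an activator of the anaphase-promoting complex, had averaged and genotype log2 fold changes of 0.79, 0.71 (NA10hd) and 0.86 (NV). Hdac7, a class IIa histone deacetylase, and H2afv, a histone H2A.Z variant, had averaged log2 fold changes of 0.55 and 0.57. Cdkn1b (p27), a Cdk inhibitor outside the 24, had a mean of 8.60 CPM in control, 28.9 CPM in NA10hd and 14.8 CPM in NV, with an averaged log2 fold change of 1.27 (adjusted p = 0.288, edgeR). It was the only 1 of 10 tested Cdk inhibitors and D cyclins with an unadjusted p under 0.05 in the average, beside 7.24% of all genes.

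Of the 6 lower genes, Arrdc4 and Rhob had the smallest adjusted p, 0.0632 each (edgeR). Arrdc4 is an arrestin-domain protein induced by glucose. Its CPM were 103, 128, 113 and 96.9 in control, 76.0, 52.2, 64.2 and 66.6 in NA10hd and 70.1, 62.6 and 63.1 in NV. Every mutant library was below every control library, and both genotypes sat at the same level. Log2 fold changes were -0.77 in NA10hd and -0.76 in NV, with a 95% interval of the difference of -0.38 to 0.36. In the list of 21 FoxO targets and glucose-responsive arrestins, Arrdc4, Klf10 and Tsc22d3 (GILZ, a glucocorticoid-induced regulator) were lower in both genotypes at an unadjusted p under 0.05, or 14.3% of the list against 0.343% of all genes. With a library left out, 1 (without NV replicate 2) to 3 members were lower in both, and 1 was with the sex of the cells as a covariate. Over all genes, 0.235% were lower in both without NV replicate 2 and 0.221% with the covariate. In the average, Txnip was lower as well (19% of the list, beside 3.7% of all genes). Arrdc3 and Ypel3 were higher (9.52%, beside 3.55%), at an unadjusted p under 0.05. The list had a median log2 fold change of 0.06.

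Rhob, a small GTPase that responds to stress, had 157, 124, 135 and 170 CPM in control, 101, 106, 115 and 94.8 CPM in NA10hd and 86.1, 75.5 and 70.8 CPM in NV. Abcg2, the efflux pump behind the side population phenotype of HSC, had 222, 190, 174 and 196 CPM in control, 145, 148, 170 and 143 CPM in NA10hd and 144, 150 and 146 CPM in NV. Neither gene overlapped between mutant and control, although the change of Abcg2 was small. Plcg2, a phospholipase C downstream of cytokine and immune receptors, had an averaged log2 fold change of -0.55 (adjusted p = 0.165, edgeR). The difference in Apoe, a lipoprotein component, was of similar size and upward, from 440, 400, 395 and 384 CPM in control to 579, 580, 646 and 623 CPM in NA10hd and 457, 624 and 539 CPM in NV. Its groups did not overlap either (log2 fold change 0.50, standard error 0.11, adjusted p = 0.173, edgeR). Of 25 tested genes of cholesterol synthesis and uptake, Apoe alone passed an unadjusted p under 0.05 in the average, or 4% of the list beside 7.24% of all genes.

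Of all lists examined, the 3 of interferon and antigen presentation had the largest shares of higher members. Of 49 tested interferon-stimulated genes, 20 (40.8%) were higher and 1 (Ifitm1) lower at an unadjusted p under 0.05 in the average, against 3.55% and 3.7% of all tested genes. The median log2 fold change was 0.35, against -0.01 over all genes, and 85.7% of members were above 0, against 48.2%. By genotype the median was 0.16 in NA10hd and 0.54 in NV. Of 21 tested genes of MHC class I presentation, 9 were higher and 2 (Canx and Pdia3, chaperones of the endoplasmic reticulum) lower, with a median of 0.28. All 12 tested genes of MHC class II presentation had a positive averaged value, 5 of them with an unadjusted p under 0.05, and the median was 0.55. In NV, the class II median was 0.96, and in NA10hd 0.18. All tested class II genes had a positive fitted change in NV. In NA10hd, H2-Eb1 (-0.70), Ifi30 (-0.09), H2-Ab1 (-0.03), Cd74 (-0.02) and Ciita (-0.002) had a negative one. With each library left out in turn, a check added after seeing the data, 15 (without control replicate 4) to 23 (without NA10hd replicate 1) interferon-stimulated genes were higher and 1 lower, and class I and class II had 6 to 10 and 3 to 6 higher members. Without NA10hd replicate 4, these 3 counts were 19, 9 and 4, at a background of 4.13%. In RNA from sorted bulk cells, more RNA per cell and more cells of a kind cannot be told apart.

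Those with an unadjusted p under 0.05 in both genotypes were Irf7, Mx1, Rtp4, Zbp1, Dtx3l, Tap1 and Psmb8 of the interferon list (14.3% of it, against 0.692% of all genes), and H2-K1, H2-T23 and H2-DMa besides among the MHC genes. Tap1 and Psmb8 belong to both the interferon and the class I list. The 7 of the interferon list became 4 to 7 with a library left out (4 without control replicate 1 or 4 or NV replicate 1 or 2), and 2 with the sex of the cells as a covariate. The 4 shared members of the class I list became 1 (without control replicate 1 or NV replicate 2) to 7 (without NA10hd replicate 1), and 2 with that covariate. Over all genes, the share higher in both moved too. It was 0.594% without control replicate 1, 0.394% without NV replicate 2, 0.993% without NA10hd replicate 1 and 0.335% with the covariate. H2-T23, which encodes the nonclassical class I molecule Qa-1, had 129, 134, 138 and 154 CPM in control, 235, 197, 232 and 257 CPM in NA10hd and 190, 228 and 210 CPM in NV. All mutant libraries were above all control libraries. The log2 fold change was 0.73 in NA10hd and 0.59 in NV, with an adjusted p of the average of 0.0597 (edgeR).

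H2-DMa, part of the exchange factor that loads peptides onto class II molecules, had 176, 181, 158 and 189 CPM in control, 230, 279, 248 and 384 CPM in NA10hd and 330, 247 and 288 CPM in NV. It did not overlap either, at 0.70 in NA10hd and 0.71 in NV (adjusted p of the average 0.158, edgeR). H2-K1, the classical class I heavy chain, had by far the highest level of these genes and a small change. It had 3787, 3960, 3590 and 3793 CPM in control, 4294, 4411, 4919 and 5264 CPM in NA10hd and 4609, 4678 and 4222 CPM in NV. These values did not overlap, and the log2 fold change was 0.29 (adjusted p = 0.435, edgeR). Reads of class I genes can be split between near-identical members, so single values of the H2 genes are uncertain.

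Mx1, an antiviral GTPase, had 14.3, 9.48, 11.3 and 4.58 CPM in control, 14.5, 16.4, 17.1 and 28.4 CPM in NA10hd and 21.4, 34.3 and 29.6 CPM in NV. Rtp4, an interferon-induced receptor transporter, had 57.1, 67.8, 66.9 and 35.7 CPM in control, 129, 94.3, 79.8 and 88.8 CPM in NA10hd and 97.7, 97.5 and 108 CPM in NV. In both, the lowest mutant library stood above the highest control library. Adjusted p-values of the average were 0.326 and 0.237 (edgeR). Other members were higher in NV with little change in NA10hd. Oas2, an RNA sensor, had log2 fold changes of 2.15 in NV and 0.08 in NA10hd, and Usp18, which removes ISG15, 1.44 and -0.09. The difference between genotypes had unadjusted p-values of 5.3e-07 for Oas2 and 7.26e-05 for Usp18.

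**Figure D3:**
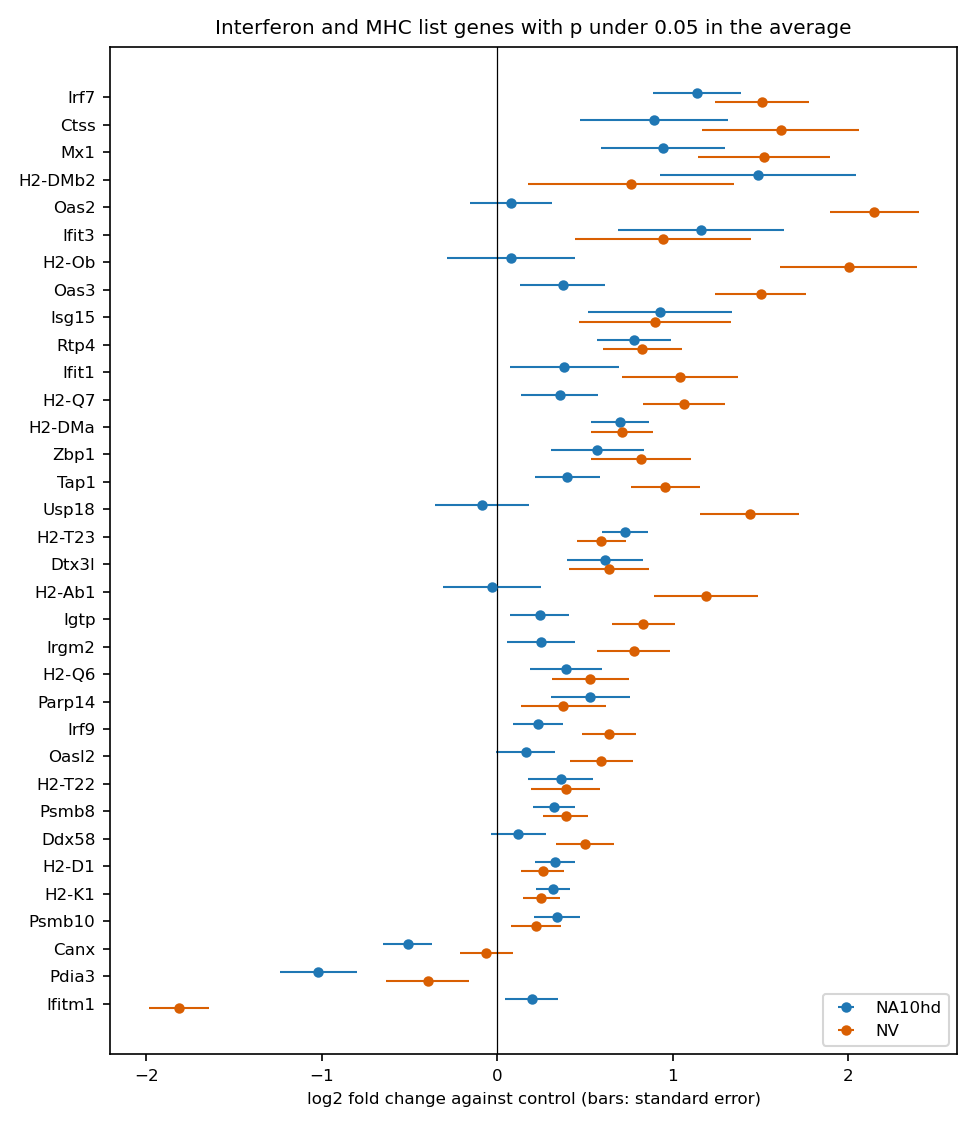
Log2 fold change against control (x axis) of NA10hd (blue) and NV (orange), with standard errors as bars, for genes of the interferon and MHC lists that had an unadjusted p under 0.05 in the average, ordered by the average. Irf7, Mx1, Rtp4, H2-DMa and H2-T23 lie to the right in both genotypes, whereas Oas2 and Usp18 lie at 2.15 and 1.44 in NV and at 0.08 and -0.09 in NA10hd. Ifitm1 lies at -1.81 in NV.

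The interferon-stimulated response element, written here as GAAA, any 2 bases and GAAA again and read on either strand, was looked for from 250 bases before to 50 bases after the start of each gene in RefSeq (GRCm38.p6). It was found in 55.3% of the interferon list (21 of 38 genes with a window), in 23.5% of class I and in 3.85% of all tested genes with a window (349 of 9066). Within the interferon and MHC lists, the element did not mark the genes that were higher in mutant HSC, with 10 of 24 (41.7%) against 16 of 38 other members (42.1%). Of the list members with an unadjusted p under 0.05 in both genotypes, 1 of 7 with a window held it, H2-T23. None of the 5 common DEGs with a window did, and Gem, Clec1a, Itgb2, Mx1, Rtp4 and Zbp1 had no window. Stretches from 4 of the higher genes are shown to let the element be compared in a gene higher in both genotypes (H2-T23), in genes of similar fitted change in both (Isg15 and Ifit3) and in a gene higher mainly in NV (Oas3). Each is written 5′ to 3′ on the gene's strand, and capitals mark the match, which reads TTTC, any 2 bases and TTTC where it lies on the opposite strand. The stretch of Isg15 holds 3 overlapping matches, of which the middle one is marked.
H2-T23 (chr17:36032796-36032845, minus strand): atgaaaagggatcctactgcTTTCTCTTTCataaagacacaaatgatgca
Isg15 (chr4:156200861-156200910, minus strand): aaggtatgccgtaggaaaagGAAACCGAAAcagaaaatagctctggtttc
Ifit3 (chr19:34583353-34583402, plus strand): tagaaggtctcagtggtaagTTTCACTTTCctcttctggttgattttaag
Oas3 (chr5:120777705-120777754, minus strand): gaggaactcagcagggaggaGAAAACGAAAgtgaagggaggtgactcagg
A match describes the letters and shows no binding. Isg15 had log2 fold changes of 0.93 in NA10hd and 0.90 in NV, Ifit3 1.16 and 0.95, and Oas3 0.37 and 1.5.

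Of 22 tested immediate early genes, Gem alone was higher at an unadjusted p under 0.05 in the average, and 7 were lower (Dusp1, Egr1, Fos, Fosb, Jun, Klf6 and Zfp36), beside 3.55% higher and 3.7% lower over all genes. Each of the 7 had a fitted change in NV that passed an unadjusted p under 0.05, and none did in NA10hd. Without NA10hd replicate 1, 5 members of this list were lower in both genotypes at an unadjusted p under 0.05, against 0 with all libraries, and over all genes 95 were, against 48. Fosb, a component of AP-1, for example, had a mean of 351 CPM in control, 250 CPM in NA10hd and 132 CPM in NV. Of 18 tested genes of the ER stress response, 5 were lower (Chac1, Hsp90b1, Ppp1r15a, Trib3 and Xbp1), beside 3.7% of all genes, and no member passed in both genotypes. The 5 became 2 (without control replicate 2 or NV replicate 2) to 9 (without NA10hd replicate 1) with a library left out, when 361 to 769 of all genes were lower. The median of this list was -0.31, with -0.31 in NA10hd and -0.19 in NV. With a library left out, the median of the average was -0.38 (without NA10hd replicate 1) to -0.16 (without control replicate 3). With the sex of the cells as a covariate, the medians were 0.006 in NA10hd and -0.55 in NV.

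Cell cycle lists show how an average near 0 can hold opposite changes. On the log2 scale of fold change, the G2/M list had median values of -0.82 in NA10hd and 1.55 in NV, and 0.15 in the average. The S phase list had -0.57, 0.77 and 0.08. Cytosolic ribosomal protein genes had 0.40 in NA10hd, -0.26 in NV and 0.08 in the average. Glycolysis, cytosolic heat shock proteins and the Bcl2 family had 0 members past an unadjusted p of 0.05 in the average, of 19, 17 and 13 tested, and 0 by the adjusted p of edgeR. Over all genes, 7.24% passed the unadjusted p, so that few would be looked for in lists of this size. Of Hox genes and cofactors, Hoxa7, Hoxa9 and Gm15051 were higher and Hoxb9 lower at an unadjusted p under 0.05 in the average, or 13.6% and 4.55% of the 22 tested beside 3.55% and 3.7% of all genes. None passed in both genotypes, and the medians of the list had opposite signs, 0.595 in NA10hd and -0.329 in NV.

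In the remaining lists, at most 2 members each passed an unadjusted p under 0.05 in both genotypes, and none was a DEG. Spry2, a feedback inhibitor of Ras to ERK signalling, was the only 1 of 14 tested ERK feedback genes to do so (0.692% of all genes were higher in both), with a mean of 32.3 CPM in control, 46.9 CPM in NA10hd and 54.9 CPM in NV (averaged log2 fold change 0.65, adjusted p = 0.490, edgeR). B4galt1, a galactosyltransferase of cell surface glycans, had log2 fold changes of 0.82 in NA10hd and 0.62 in NV, and its libraries did not overlap with control. Of 90 tested genes of oxidative phosphorylation, mt-Atp8 alone passed in both (1.11% of the list, beside 0.343% of all genes lower in both), at log2 fold changes of -1.40 and -1.94. In the average, mt-Co1, mt-Co2, mt-Nd3 and mt-Nd5 were lower as well, and Cox6a1, Ndufb5 and Ndufs8 were higher, at an unadjusted p under 0.05, so that 5.56% of the list was lower and 3.33% higher, near the 3.7% and 3.55% of all genes. It shares bases with mt-Atp6, so its reads are uncertain. Of 12 Stat5 targets, Cish and Socs2 were lower in the average (16.7% of the list, beside 3.7% of all genes), and neither passed in NA10hd. The medians of the list were 0.14 in NA10hd and -0.64 in NV.

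**Figure D4:**
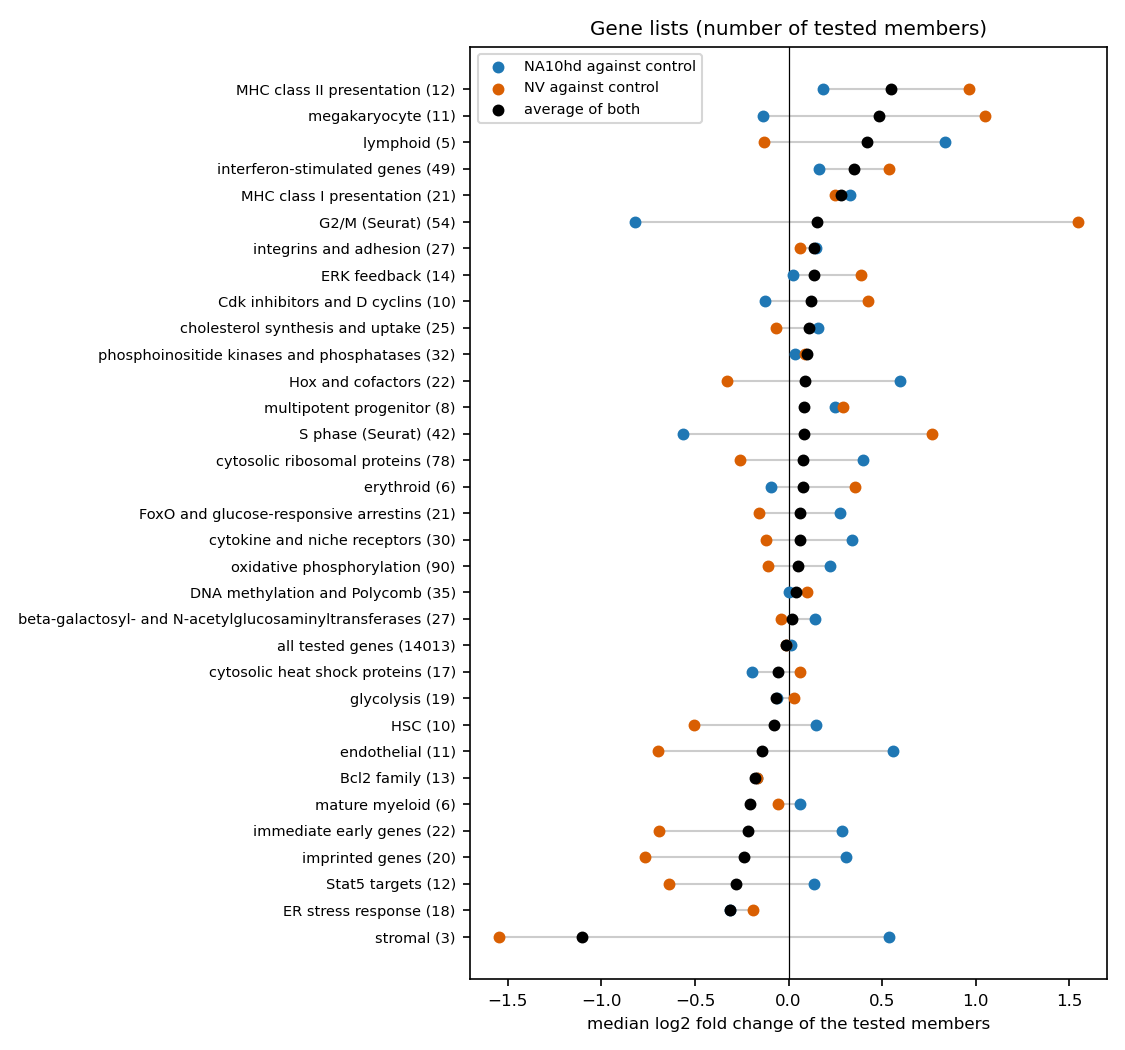
Median log2 fold change (x axis) of the tested members of each gene list, in NA10hd (blue), NV (orange) and the average of both (black), with the number of tested members in brackets. Interferon and MHC lists have all 3 points above 0, whereas G2/M ranges from -0.82 in NA10hd to 1.55 in NV with an average of 0.15. The lists of multipotent progenitor, ERK feedback, integrin, phosphoinositide, and DNA methylation and Polycomb genes also have all 3 points above 0, at smaller averages.

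Markers of other cells were read beside these groups. The 11 tested megakaryocyte markers had a median of 0.48 in the average, with -0.14 in NA10hd and 1.05 in NV, and Treml1, a platelet receptor, passed an unadjusted p under 0.05 in both genotypes (9.09% of the list, beside 0.692% of all genes higher in both). In the average, Itga2b, Pf4 and Treml1 were higher at an unadjusted p under 0.05, or 27.3% of the list beside 3.55% of all genes. Fitted changes of Pf4, Itga2b and Ppbp had opposite signs, at -0.50, -0.25 and -2.68 in NA10hd and 2.92, 1.31 and 1.77 in NV. Vwf (-0.83) and Itgb3 (-0.63) were lower in NV instead, with 0.19 and -0.33 in NA10hd. Gp1bb, Gp5 and Gp9 had positive fitted changes in both genotypes. Summed megakaryocyte markers were 389 to 533 CPM in control, 308 to 575 CPM in NA10hd and 404 to 739 CPM in NV. Summed erythroid markers were 63.9 to 80.9 CPM in control and 56.6 to 75.0 CPM in NA10hd, and lay above both in NV at 99.9 to 142 CPM, with 6 of 12 tested. Multipotent progenitor markers summed to 539 to 720, 692 to 845 and 601 to 681 CPM, with 8 of 14 tested and Ctsg, Il7r and Dntt at 0 in all libraries. Summed mature myeloid markers overlapped between groups, at 445 to 562, 384 to 538 and 506 to 535 CPM. Lymphoid markers were summed to 85.0 to 105 CPM in control, 108 to 157 CPM in NA10hd and 73.2 to 97.8 CPM in NV. Summed endothelial markers had no overlap between the groups, with 761 to 811 CPM in control, 947 to 1090 CPM in NA10hd and 635 to 738 CPM in NV, in opposite directions in the genotypes. Single members differed from the sum. Egfl7, Eng and Plvap had positive fitted changes in both genotypes and were higher in the average at an unadjusted p under 0.05, whereas Cldn5 and Emcn were lower. These are 27.3% and 18.2% of the list, beside 3.55% and 3.7% of all genes. Esam was at -0.10 in NA10hd and 0.27 in NV. Stromal markers summed to 7.66 to 18.8 CPM in control, 9.56 to 25 CPM in NA10hd and 2.51 to 8.67 CPM in NV, and 3 of 12 were tested. Of the members, 6 of 14 were tested for mature myeloid, 5 of 15 for lymphoid and 11 of 14 for endothelial cells, and 5 lymphoid markers (Ms4a1, Pax5, Cd3e, Cd3g and Cd2), 1 endothelial marker (Sox17) and 3 stromal markers (Col3a1, Dcn and Lum) were at 0 in all libraries. All 10 HSC markers were tested, and Ly6a, which is interferon-inducible and part of the gate, was the only 1 with an unadjusted p under 0.05, beside 7.24% of all genes. The part of these cells in the interferon and MHC values was not tested.

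The reverse pattern of Sva, with counts in all 4 control libraries and 0 in all 7 mutant libraries, was found for 3 genes. Rab39, a vesicle GTPase, had 8, 22, 33 and 2 counts in control, and Ubqlnl, a ubiquilin-like gene, 8, 13, 25 and 4. Gm10489 had 14 control counts in all and was below the filter. Levels were low, and the adjusted p-values of the average were 0.165 for both Rab39 and Ubqlnl (edgeR).

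Common changes were then read with the sex of the cells as a covariate, since NA10hd libraries were mostly male and NV libraries mixed. In this fit, NA10hd replicates 1 to 3 were compared with control replicates 1 and 4, and NV with control replicates 2 and 3, so that the genotypes shared no control library, and NA10hd replicate 4 was fitted alone. All 8 common DEGs were called again among 11. Of the 145 genes with 1 sign and an unadjusted p under 0.05 in both genotypes, 144 had the same direction in both in this fit and 49 an unadjusted p under 0.05 in both. The 8 and the 145 were picked from these same 11 libraries. Their agreement was therefore largely set by that choice and is no separate support. With the covariate, 78 genes passed in both genotypes with 1 sign, 47 higher (0.335%) and 31 lower (0.221%), and 155 passed with opposite signs. At 2 control libraries per genotype, the residual degrees of freedom were 6. Median log2 fold changes of lists moved as well. They were -0.42 in NA10hd and 1.18 in NV for G2/M. Class II had 0.40 and 1.035, and Stat5 targets 0.56 and -0.94.

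Sva, Plac8 and Gem were called common in all 11 fits that left out 1 library. Slc17a8 was called common in 6 of 11, Clec1a in 4, Cdcp1 in 3, Itgb2 in 2 and Irf7 in 1. Irf7 had an adjusted p of 0.00476 without NA10hd replicate 4, and above 0.05 without any other library. Averaged log2 fold changes moved little, for instance between 1.66 and 1.88 for Gem and between -1.22 and -1.07 for Cdcp1. Leaving out any 1 control library left 4 or 5 DEGs of the average, and leaving out NA10hd replicate 1 gave 18.

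**Figure D5:**
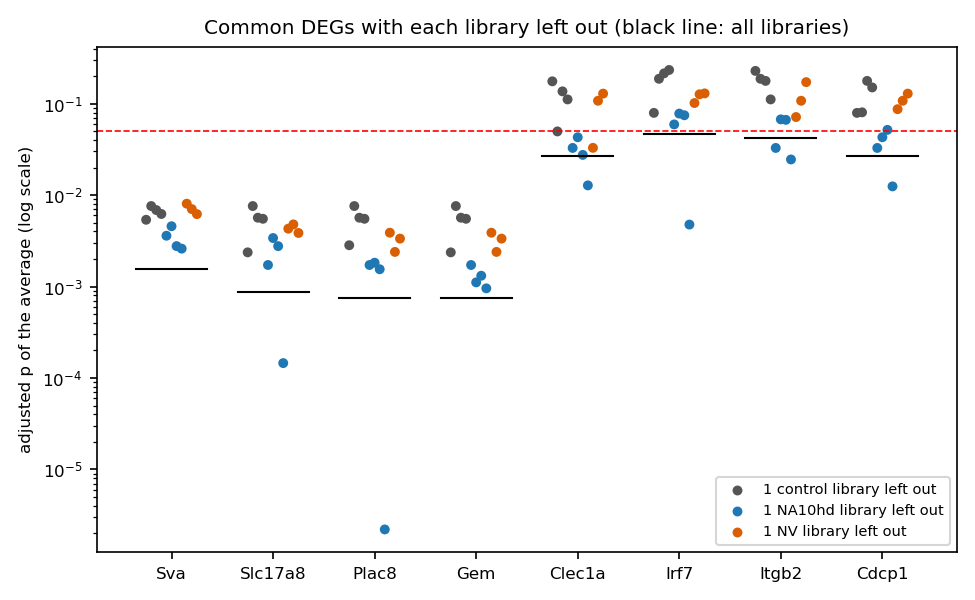
Adjusted p of the average (y axis, log scale) of the 8 common DEGs when 1 control (grey), NA10hd (blue) or NV (orange) library is left out, with black lines for all 11 libraries and a dashed line at 0.05. Sva, Slc17a8, Plac8 and Gem stay under the dashed line in every fit, whereas Irf7 is under it only without NA10hd replicate 4.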

How the data were processed

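The authors amplified cDNA of sorted HSC for Nextera XT libraries, read on a NextSeq500, with Hisat2 alignment to NCBIM37. The values deposited by the authors are raw counts per gene from featureCounts, without normalization, for 37991 Ensembl IDs. Tool versions, strand setting and the treatment of multi-mapping reads are not given in the sources used here. GENCODE of NCBIM37 named 37205 IDs, and 786 had no name.

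All 11 libraries were fitted together with edgeR 4.0.16 in R 4.3.3 (TMM, default filter on low counts, quasi-likelihood test). The contrast gave each genotype a weight of 0.5 against control, and p was adjusted by Benjamini-Hochberg over 14013 genes. CPM used TMM-scaled totals, whereas limits from counts of 0 used 3 counts over the group's total. Intervals and limits cover counting or model error only, since reads without molecular identifiers are not independent molecules. The code was tested on simulated data. S phase and G2/M lists came from Seurat 5.3.0, and the others from general knowledge. Members, lists and tests were chosen with earlier results of these data known, and no list was given a test.

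Genes were named by these rules: up to 8 largest changes in each direction among common DEGs without overlap, the 5 of highest CPM in each direction, those in a list, the 3 most alike between genotypes in each direction, the 5 DEGs of the average that differed most between genotypes, and the targeted genes. Further genes were added after their values were seen. Alternatives were DESeq2 1.42.0, limma-voom (limma 3.58.1), voom with 1 weight per group, DESeq2 size factors, other filters, 7 mutant libraries as 1 group, other fold thresholds, a replicate block, sex of the cells and each library left out. Figures were drawn with matplotlib 3.10.9. Some single-gene results are not reported here, in the text or the figures.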

Additional observations from a re-analysis of the deposited data

Results flagged for a closer look

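The change against control differed between genotypes, by the direct edgeR test of NA10hd minus NV, in 9 of the 12 DEGs of the average. The log2 difference was 9.97 for Slc17a8 and 9.11 for Ncam2, both at 0 counts in NV, so that these sizes depend on the fit. It was -1.03 for Plac8, -1.85 for Gem and -1.07 for Itgb2, which were higher in NV, and 1.69 for Clec1a, 1.94 for Gda, 2.01 for Ifitm1 and 1.40 for Ppp1r15a, which were lower in NV. Adjusted p-values ranged from 2.76e-05 for Ifitm1 to 0.0180 for Plac8 (edgeR).

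In 5 of 89 groups of 4 libraries, 1 library stood apart by Dixon's criterion, which chance alone gives in about 1 in 20 groups. NA10hd replicate 4 had 46.5 CPM of Plac8, against 107 to 114 CPM in the other NA10hd libraries, and 71.2 CPM of Ddah2, against 117 to 123 CPM. It was the only library of female cells alone. NA10hd replicate 3 had 170 CPM of Abcg2, against 143 to 148 CPM. Control replicate 3 had 19 CPM of Pip5k1a, against 27.4 to 28.8 CPM, and control replicate 2 had 20 CPM of Zbp1, against 13.4 to 14.4 CPM. Causes were not tested.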

How the results depend on the processing

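DEGs of the average, higher and lower, numbered 43 and 36 with DESeq2, 15 and 17 with voom and 1 weight per group, 3 and 1 in a test against 1.5-fold (glmTreat), and 1 (Sva) and 0 with the 7 mutant libraries as 1 group, where 660 genes had an unadjusted p under 0.05. Without a filter on low counts, 8 were higher. Common DEGs, higher and lower, were 31 and 17 with DESeq2, 11 and 9 with voom and 1 weight per group, and 3 and 0 with glmTreat. Of the common DEGs of the main fit, Irf7 was lost with DESeq2 size factors and Itgb2 with limma-voom. Cdcp1, Irf7 and Itgb2 were lost with the replicate block, and glmTreat kept only Gem, Plac8 and Sva. Genes past the adjusted larger p numbered 0 with limma-voom and 1 each with at least 10 counts in every library, glmTreat and sex of the cells as a covariate. DEGs of the average that also differed between genotypes numbered 42 with DESeq2, 19 with voom and 1 weight per group, 2 with glmTreat and 5 with sex of the cells. With 1 library left out, DEGs of the average were 3 to 9 higher and 1 to 9 lower, common DEGs 3 to 7 higher and 0 to 6 lower, genes past the larger p 0 to 2 and DEGs that differed between genotypes 2 to 11. The causes were not tested.

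Replicate numbers did not pair the libraries, with correlations of same-numbered libraries of -0.0875 to 0.0264 over 10 pairs. With the replicate block, 3 genes were higher and 4 lower, 3 common DEGs were higher, 0 passed the larger p and 5 differed between genotypes, and the log2 fold change of Hoxa10 turned to -0.0528. It was also -0.0533 without NA10hd replicate 3 and -0.038 without NV replicate 1, and ranged from -0.0533 to 0.16 over libraries left out. Nup98 turned to 0.025 without control replicate 2, 0.0889 without NA10hd replicate 1 and 0.069 without NV replicate 2, and ranged from -0.36 to 0.0889. Both had an adjusted p near 1 in the fit of all libraries. The median log2 fold change of the interferon list was 0.31 to 0.41 over all alternatives, of class I 0.26 to 0.31 and of class II 0.49 to 0.69.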
